A study of Mus musculus with 13 samples.

Results

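The genes described here are 10 genes used to mark border-associated macrophages and monocytes, namely Mrc1, Cd163, Lyve1, Marco, Ms4a7, Ly6c2, Lyz2, F13a1, Stab1 and Plac8. They are a list of names, taken as markers of these cells with earlier results of these data known, and are 10 of the 49315 genes counted in each library. Bulk RNA-Seq had been performed on midbrain tissue of 13 male mice, 8 to 12 weeks old, on a C57BL/6J background. All animals carried floxed Ripk3 alleles (Ripk3fl/fl), and all had received 60 mg/kg tamoxifen for 5 days. Mice labelled Cre+ also carried a tamoxifen-inducible Aldh1l1-driven Cre, which deletes Ripk3 in astrocytes, and Cre- littermates lacked it. Each genotype was given MPTP, a toxin that kills midbrain dopaminergic neurons, at 20 mg/kg daily for 5 days, or saline, and tissue was collected 3 days later from animals perfused with PBS. This gave 3 Cre- Saline, 3 Cre- MPTP, 3 Cre+ Saline and 4 Cre+ MPTP mice, each a separate animal. The Cre is meant to act in astrocytes, and recombination in macrophages or monocytes was not analysed here.

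Border-associated macrophages are long-lived phagocytes of the meninges, perivascular spaces and choroid plexus, and differ from the microglia of the parenchyma. They carry scavenger and lectin receptors, among them the mannose receptor CD206 (Mrc1), the hemoglobin receptor CD163 and the hyaluronan receptor LYVE1. Monocytes are blood cells that enter injured tissue, and the inflammatory subset bears Ly6C in the mouse. In bulk tissue, fewer cells of a type and less RNA per cell cannot be told apart.

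Levels were compared between genes as RPKM, which divides CPM (counts scaled to library size with TMM) by the kilobases of exon. In Cre- Saline midbrain, Lyz2, which encodes the lysozyme of myeloid cells, was highest, at 8.33 ± 0.975 RPKM (SD, n = 3). The endocytic receptor gene Stab1 followed at 1.77 ± 0.371 RPKM. F13a1 at 0.989 ± 0.150 RPKM and Mrc1 at 0.944 ± 0.1004 RPKM did not differ beyond their spread, nor did Cd163 at 0.572 ± 0.0401 RPKM and Lyve1 at 0.408 ± 0.167 RPKM. Below these stood Marco at 0.119 ± 0.0150 RPKM, Ms4a7 at 0.0758 ± 0.0505 RPKM, Plac8 at 0.0560 ± 0.0274 RPKM and Ly6c2 at 0.0464 ± 0.0152 RPKM. Each of these last 4 overlapped its neighbor within 1 SD. Marco changed its place most, since in Cre- MPTP midbrain it reached 6.77 ± 3.13 RPKM, next to Lyz2 at 9.44 ± 5.83 RPKM. All further values are CPM and compare 1 gene between libraries.

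The libraries held between 11489150 and 29397278 counts assigned to genes, and 2 of them stood apart. The smallest was Cre- MPTP replicate 1, where the 10 most abundant genes took 2.20% of the counts, against 5.87% to 7.59% in the others. Cre+ MPTP replicate 4 held 2245 CPM of muscle transcripts, against 14.7 to 58.3 CPM elsewhere. Beside these 2, Cre+ MPTP replicate 1 held 88.8 CPM of 6 choroid plexus markers, against 24.2 to 40.8 CPM elsewhere. It was kept where those 2 were left out together, and edgeR called 0 of the 6 markers in any comparison. The part of choroid plexus tissue in the results below was not tested. Ripk3 itself had 4 to 40 counts in Cre- and 4 to 19 in Cre+ libraries, too few in whole tissue to check a deletion limited to astrocytes. The midbrain label was met by dopaminergic markers such as Th and Slc6a3. Their 6-gene list summed to 262 to 327 CPM in Cre- Saline, 243 to 355 CPM in Cre- MPTP, 266 to 297 CPM in Cre+ Saline and 254 to 333 CPM in Cre+ MPTP mice. With MPTP edgeR called 0 of the 6 in either genotype.

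Promoters are shown for the 4 genes that passed the test in at least 1 comparison, because 3 of them moved together in MPTP-treated Cre- midbrain while Mrc1 moved the other way. RefSeq held a promoter of 250 bases before to 50 after the start (build GRCm38.p6) for 9 of the 10 genes, all but Lyve1. Sequences run 5′ to 3′ on the strand of the gene, and capitals mark the core motif of PU.1, the transcription factor of the myeloid lineage, spelled GAGGAA or, on the opposite strand, TTCCTC.
Marco (chr1:120504975-120505274, minus strand): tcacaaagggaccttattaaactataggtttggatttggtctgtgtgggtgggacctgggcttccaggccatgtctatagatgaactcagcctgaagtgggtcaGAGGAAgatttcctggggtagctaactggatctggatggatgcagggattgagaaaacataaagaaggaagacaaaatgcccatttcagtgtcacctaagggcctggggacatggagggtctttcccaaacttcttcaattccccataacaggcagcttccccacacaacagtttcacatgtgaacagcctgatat
Stab1 (chr14:31168592-31168891, minus strand): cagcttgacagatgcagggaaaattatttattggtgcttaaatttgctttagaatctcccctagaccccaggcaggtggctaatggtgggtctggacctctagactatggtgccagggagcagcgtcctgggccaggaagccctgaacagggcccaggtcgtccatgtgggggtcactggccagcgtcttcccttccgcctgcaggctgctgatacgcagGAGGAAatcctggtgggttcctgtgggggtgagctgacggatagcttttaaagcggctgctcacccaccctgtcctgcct
Ly6c2 (chr15:75111922-75112221, minus strand): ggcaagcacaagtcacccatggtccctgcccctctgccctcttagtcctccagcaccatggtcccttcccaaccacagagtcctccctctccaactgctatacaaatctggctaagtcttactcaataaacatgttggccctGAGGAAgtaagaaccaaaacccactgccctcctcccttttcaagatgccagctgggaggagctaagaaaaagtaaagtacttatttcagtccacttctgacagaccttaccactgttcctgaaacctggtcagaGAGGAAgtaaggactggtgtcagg
Mrc1 (chr2:14229164-14229463, plus strand): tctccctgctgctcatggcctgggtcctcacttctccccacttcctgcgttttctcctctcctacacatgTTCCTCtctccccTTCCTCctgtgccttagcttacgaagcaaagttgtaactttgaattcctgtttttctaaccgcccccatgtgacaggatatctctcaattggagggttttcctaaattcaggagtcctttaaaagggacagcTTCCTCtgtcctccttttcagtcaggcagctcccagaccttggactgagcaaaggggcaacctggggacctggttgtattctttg
The core lay once each in Marco and Stab1, in 2 places in Ly6c2 and in 3 places in Mrc1. It was present in 7 of the 9 promoters, and in 28.3% of all 32851 RefSeq promoters of this length. None of the 9 held a C/EBP motif (TTGCNNAA, found in 10.8% of all promoters), an NF-kappaB motif (8.46%) or a full glucocorticoid response element (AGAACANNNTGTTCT, 0.009%), searched on both strands. No match overlapped another, and a match of letters is not a measured binding site.

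**Figure D1:**
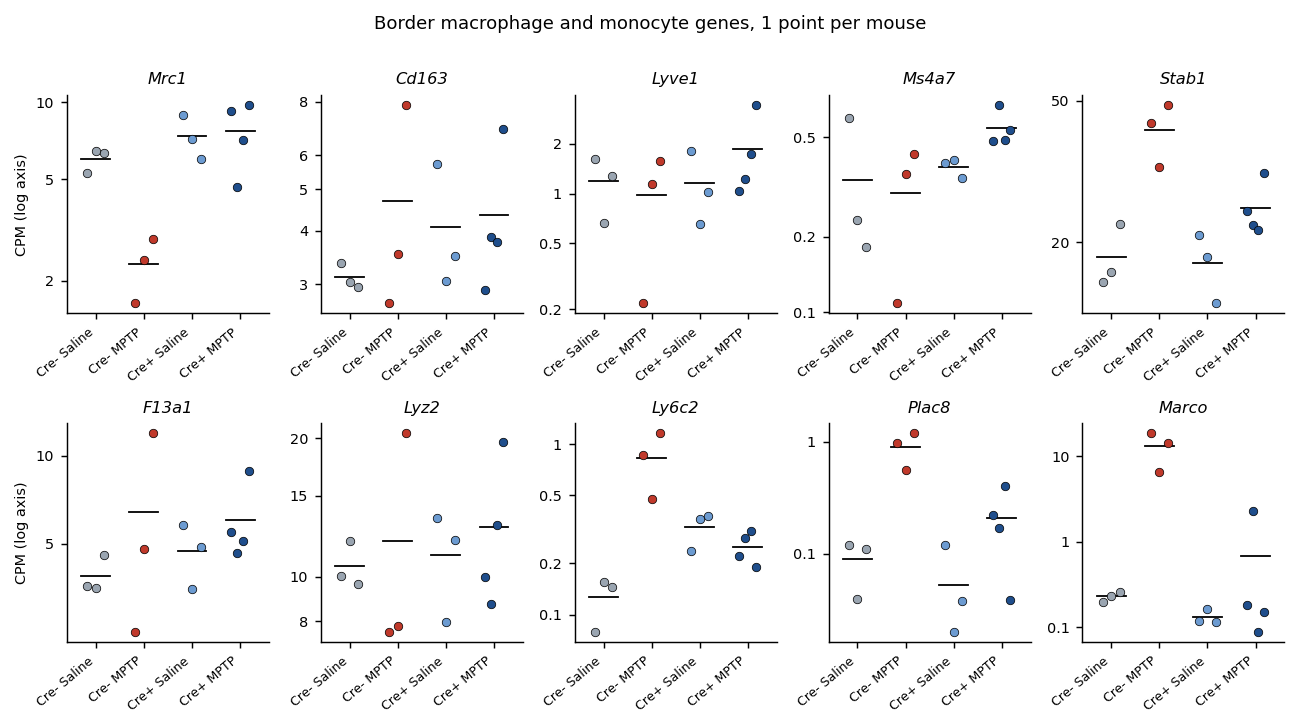
CPM on log axes for each of the 10 genes, with 1 point per mouse in 4 groups and a line at each group's mean; a value of 0 is drawn at 0.02 CPM. In Cre- MPTP mice the 3 Mrc1 values (1.63 to 2.91) lie under those of every other group and the 3 Marco values (6.54 to 18.4) above them.

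Among the genes of resident border macrophages, Mrc1 fell after MPTP in Cre- mice and was higher in Cre+ than in Cre- mice given MPTP, whereas no change in Cd163, Lyve1 or Ms4a7 passed the test in any comparison. Mrc1 (ENSMUSG00000026712, chr2:14229392-14332057, plus strand) encodes a receptor for mannosylated glycoproteins, and the microRNA gene Mir511 lies inside it on the same strand. Cre- Saline mice had 5.28, 6.44 and 6.32 CPM of Mrc1 and Cre- MPTP mice 1.63, 2.42 and 2.91 CPM. Cre+ Saline mice had 8.91, 7.20 and 6.02 CPM and Cre+ MPTP mice 9.24, 4.64, 7.14 and 9.77 CPM. All 3 Cre- MPTP values thus lay below all 10 others, and the remaining 3 groups overlapped one another. The log2 fold change with MPTP was -1.34 ± 0.30 (SE) in Cre- mice (edgeR quasi-likelihood test, Benjamini-Hochberg adjusted p = 0.0280) and 0.07 ± 0.27 in Cre+ mice (edgeR adjusted p = 1.00). Between genotypes, Mrc1 was 3.26-fold higher in Cre+ than in Cre- MPTP mice, a log2 fold change of 1.70 ± 0.29 (edgeR adjusted p = 0.0154), and with saline the difference was 0.29 ± 0.29 (edgeR adjusted p = 1.00). The test of the interaction itself gave 1.41 ± 0.40 with an unadjusted p of 0.00411 and an edgeR adjusted p of 0.353. The Cre- call ended without Cre- MPTP replicate 2 (edgeR adjusted p = 0.0612) and without Cre- Saline replicate 1 (0.0585), 2 (0.115) or 3 (0.0986), and the genotype call without Cre+ MPTP replicate 1 (0.0584) or 3 (0.0508). Without the 2 libraries that stood apart, both calls held, at -1.16 (edgeR adjusted p = 0.0158) and 1.40 (0.0126). Both ended in a fit of the 2 compared groups alone and in a fit with a term for replicate number. There the edgeR adjusted p reached 0.182 for the Cre- call and 0.241 for the genotype call.

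Cd163 (ENSMUSG00000008845, chr6:124304656-124330527) encodes the scavenger receptor for hemoglobin-haptoglobin complexes. Its values were 3.37, 3.05 and 2.96 CPM in Cre- Saline, 2.71, 3.53 and 7.86 CPM in Cre- MPTP, 5.72, 3.05 and 3.50 CPM in Cre+ Saline, and 2.92, 3.86, 3.77 and 6.91 CPM in Cre+ MPTP mice. The groups overlapped, and 1 mouse in each MPTP group stood above the rest, Cre- MPTP replicate 3 and Cre+ MPTP replicate 4. The log2 fold change with MPTP was 0.61 ± 0.41 in Cre- and 0.09 ± 0.38 in Cre+ mice (edgeR adjusted p = 0.482 and 1.00).

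Lyve1 (ENSMUSG00000030787, chr7:110850607-110863239), a hyaluronan receptor shared by perivascular macrophages and lymphatic vessels, was likewise spread within groups. It measured 1.63, 0.664 and 1.28 CPM in Cre- Saline, 0.217, 1.15 and 1.58 CPM in Cre- MPTP, 1.81, 0.651 and 1.03 CPM in Cre+ Saline, and 1.03, 1.23, 1.73 and 3.43 CPM in Cre+ MPTP mice. The lowest of the 13 was Cre- MPTP replicate 1, with 2 counts, and the highest was Cre+ MPTP replicate 4, with 90. Between genotypes with MPTP the log2 difference was 0.81 ± 0.58 (edgeR adjusted p = 0.446), and it had the opposite sign, at -0.05, without the 2 libraries that stood apart.

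Ms4a7 (ENSMUSG00000024672, chr19:11321039-11336146) is a membrane-spanning 4-domain gene that separates border macrophages from microglia in the healthy brain. It had between 1 and 15 counts in a library, so that its precision was limited by counting. Cre- Saline mice had 0.595, 0.234 and 0.183 CPM, Cre- MPTP mice 0.108, 0.356 and 0.429 CPM, Cre+ Saline mice 0.394, 0.407 and 0.343 CPM and Cre+ MPTP mice 0.480, 0.671, 0.488 and 0.534 CPM. All 4 Cre+ MPTP values lay above those of Cre+ Saline and of Cre- MPTP mice, but the log2 differences were 0.50 ± 0.45 and 0.70 ± 0.47 (edgeR adjusted p = 1.00 and 0.416).

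The scavenger receptor genes Stab1 and Marco rose with MPTP in Cre- mice, and Marco was lower in Cre+ than in Cre- mice given MPTP. Stab1 (ENSMUSG00000042286, chr14:31139013-31168641, minus strand) encodes stabilin-1, which takes up modified lipoproteins and extracellular matrix fragments. It overlaps the protein-coding gene Nt5dc2 on the opposite strand, and the strand setting of the counting is not given in the sources used here, so that reads of the overlap cannot be told apart. Cre- Saline mice had 15.4, 16.5 and 22.5 CPM of Stab1 and Cre- MPTP mice 43.4, 32.5 and 48.7 CPM. Cre+ Saline mice had 20.97, 18.1 and 13.4 CPM and Cre+ MPTP mice 24.5, 22.3, 21.6 and 31.3 CPM. MPTP values lay above saline values in both genotypes, and every Cre- MPTP value lay above every Cre+ MPTP value, the nearest being 32.5 and 31.3 CPM. The log2 fold change was 1.19 ± 0.23 in Cre- mice (edgeR adjusted p = 0.0117) and 0.51 ± 0.21 in Cre+ mice (unadjusted p = 0.0339 and adjusted p = 1.00, edgeR). The difference between genotypes with MPTP was -0.73 ± 0.21 (edgeR adjusted p = 0.133), and the interaction was -0.68 ± 0.31 (edgeR adjusted p = 0.795). Without the 2 libraries that stood apart the genotype difference passed the threshold, at -0.84 (edgeR adjusted p = 0.0431), as it did without Cre- MPTP replicate 2 (0.0369). The Cre- call ended without Cre- Saline replicate 1 (edgeR adjusted p = 0.0686) or 2 (0.0782).

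Marco (ENSMUSG00000026390, chr1:120474538-120505024, minus strand) encodes a class A scavenger receptor that binds bacteria and particles and is induced in activated macrophages. Cre- Saline mice yielded 5, 6 and 7 counts of it and Cre- MPTP mice 170, 165 and 428, or 0.198, 0.234 and 0.256 CPM against 18.4, 6.54 and 14.1 CPM. In Cre+ Saline mice it measured 0.118, 0.163 and 0.114 CPM. Cre+ MPTP mice had 0.185, 2.29, 0.0887 and 0.153 CPM, or 5, 41, 2 and 4 counts. Replicate 2 lay above all saline mice. The others were near the 3 to 4 counts of Cre+ Saline mice, too few to be ranked against Cre- Saline mice. The rise in Cre- mice was 55.2-fold, a log2 fold change of 5.79 ± 1.00 (edgeR adjusted p = 0.00638), and it passed the threshold in 6 of 6 fits that each omitted 1 library. Marco reached 10 counts only in the Cre- MPTP libraries (165 to 428) and Cre+ MPTP replicate 2 (41). It thus passed the filter on low counts through the group in which it was high, and these fits are not separate support for the call. In Cre+ mice the log2 fold change was 2.22 ± 1.06 (unadjusted p = 0.0564 and adjusted p = 1.00, edgeR), and without Cre+ MPTP replicate 2 it was 0.13. The difference between Cre+ and Cre- MPTP mice was -4.35 ± 0.82 (edgeR adjusted p = 0.0236). It was -6.43 without Cre+ MPTP replicate 2 (edgeR adjusted p = 6.4e-05), and it missed the threshold without Cre+ MPTP replicate 1 (0.0803), 3 (0.0660) or 4 (0.0621). The interaction was -3.56 ± 1.54 (edgeR adjusted p = 0.795), and omitting Cre+ MPTP replicate 2 gave -5.65 (edgeR adjusted p = 0.00838).

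Of the genes of monocytes, Ly6c2 rose with MPTP in Cre- mice, and Plac8 moved in the same direction at counts too low for the main test, whereas Lyz2 and F13a1 did not pass the edgeR test. Ly6c2 (ENSMUSG00000022584, chr15:75108158-75111970, minus strand) encodes the Ly6C antigen of inflammatory monocytes. Its libraries held 2, 4 and 4 counts in Cre- Saline and 8, 12 and 35 in Cre- MPTP mice, or 0.0794, 0.156 and 0.146 CPM against 0.867, 0.475 and 1.16 CPM. Cre+ Saline mice had 0.237, 0.366 and 0.381 CPM and Cre+ MPTP mice 0.222, 0.280, 0.311 and 0.191 CPM. The 3 Cre- MPTP values were the highest of the 13, and the 3 Cre- Saline values the lowest. The log2 fold change with MPTP was 2.66 ± 0.47 in Cre- mice (edgeR adjusted p = 0.00704) and -0.39 ± 0.43 in Cre+ mice (edgeR adjusted p = 1.00). Between genotypes it was -1.73 ± 0.40 with MPTP (edgeR adjusted p = 0.0583) and 1.33 ± 0.49 with saline (unadjusted p = 0.0184 and adjusted p = 1.00, edgeR). The interaction was -3.05 ± 0.64 (unadjusted p = 0.000395 and adjusted p = 0.146, edgeR). DESeq2 and limma voom called Ly6c2 lower in Cre+ than in Cre- MPTP mice, at -1.78 and -1.70 (adjusted p = 0.0265 and 0.0144), and called its interaction, at -3.14 and -2.77 (adjusted p = 0.0304 and 0.0167). The Cre- call was kept in all 4 fits without 1 library in which Ly6c2 passed the filter on low counts. It reached 10 counts only in Cre- MPTP replicates 2 and 3 (12 and 35) and Cre+ Saline replicate 3 (10). Without Cre- MPTP replicate 2 or 3 it was therefore not tested, and the 4 fits cannot show whether the call depends on those mice.

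Ly6c2 has a close paralog, Ly6c1, which is expressed by brain endothelium, and 1.43% of the 150-base stretches of its transcripts occur unchanged in Ly6c1. Only unique hits were counted. Ly6c1 had 34.2 ± 0.752 CPM in Cre- Saline, 59.9 ± 17.1 CPM in Cre- MPTP, 27.7 ± 0.686 CPM in Cre+ Saline (n = 3 each) and 56.1 ± 9.62 CPM in Cre+ MPTP mice (SD, n = 4). MPTP values of Ly6c1 lay above saline values in both genotypes, unlike those of Ly6c2, while misplaced reads between the pair were not tested.

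Plac8 (ENSMUSG00000029322, chr5:100553725-100572245), a small cysteine-rich protein gene of monocytes and granulocytes, had 3, 1 and 3 counts in Cre- Saline, 9, 14 and 36 in Cre- MPTP, 3, 0 and 1 in Cre+ Saline, and 6, 3, 9 and 1 in Cre+ MPTP libraries. It did not reach 10 counts in 3 libraries and was not tested with the other 9. In CPM the Cre- MPTP values of 0.975, 0.555 and 1.19 lay above those of all other mice, of which the highest was 0.399 CPM. In a fit of all 35759 genes with at least 1 count, its log2 fold change was 3.25 ± 0.82 with MPTP in Cre- mice (edgeR adjusted p = 0.0570), and -2.09 ± 0.69 for Cre+ against Cre- MPTP mice (edgeR adjusted p = 0.181).

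Lyz2 (ENSMUSG00000069516, counted over chr10:117277334-117282274) and F13a1 (ENSMUSG00000039109, chr13:36867178-37050244), which encodes the A subunit of coagulation factor XIII and is high in monocytes and border macrophages, varied together with Cd163. Lyz2 had 10.04, 11.95 and 9.64 CPM in Cre- Saline, 7.59, 7.80 and 20.5 CPM in Cre- MPTP, 13.4, 7.97 and 11.99 CPM in Cre+ Saline, and 9.98, 8.73, 12.95 and 19.7 CPM in Cre+ MPTP mice. F13a1 had 3.57, 3.51 and 4.56 CPM in Cre- Saline, 2.49, 4.79 and 11.9 CPM in Cre- MPTP, 5.80, 3.50 and 4.87 CPM in Cre+ Saline, and 5.47, 4.64, 5.10 and 8.85 CPM in Cre+ MPTP mice. For both genes, as for Cd163, the highest values of all 13 were those of Cre- MPTP replicate 3 and Cre+ MPTP replicate 4, and the other MPTP mice lay within or near the saline range. The first of these libraries also had the largest sum of neutrophil markers (85.6 CPM) and the second the largest of muscle (2245 CPM) and erythrocyte markers (87.4 CPM), whose part in these values was not tested. With MPTP the log2 fold change in Cre- mice was 0.19 ± 0.39 for Lyz2 and 0.75 ± 0.45 for F13a1 (edgeR adjusted p = 0.836 and 0.434), and without Cre- MPTP replicate 3 both had the opposite sign, at -0.45 and -0.06. F13a1 passed the threshold without the 2 libraries that stood apart, at 1.12 (edgeR adjusted p = 0.0357), and under limma voom, at 1.20 (adjusted p = 0.0170). F13a1 overlaps 2 annotated antisense transcripts, Gm49144 and Gm30489, whose reads could not be told apart without the strand setting. Lyz2 shared no 150-base stretch with Lyz1.

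Across the 13 libraries, as a description of points that share group and depth, Pearson's r of log2 CPM was 0.88 between Cd163 and F13a1, 0.86 between Cd163 and Lyz2, and 0.84 between F13a1 and Lyz2. Marco and Stab1 (0.79), Marco and Ly6c2 (0.77) and Stab1 and Ly6c2 (0.70) formed another group, and Mrc1 ran against Marco (-0.92).

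**Figure D2:**
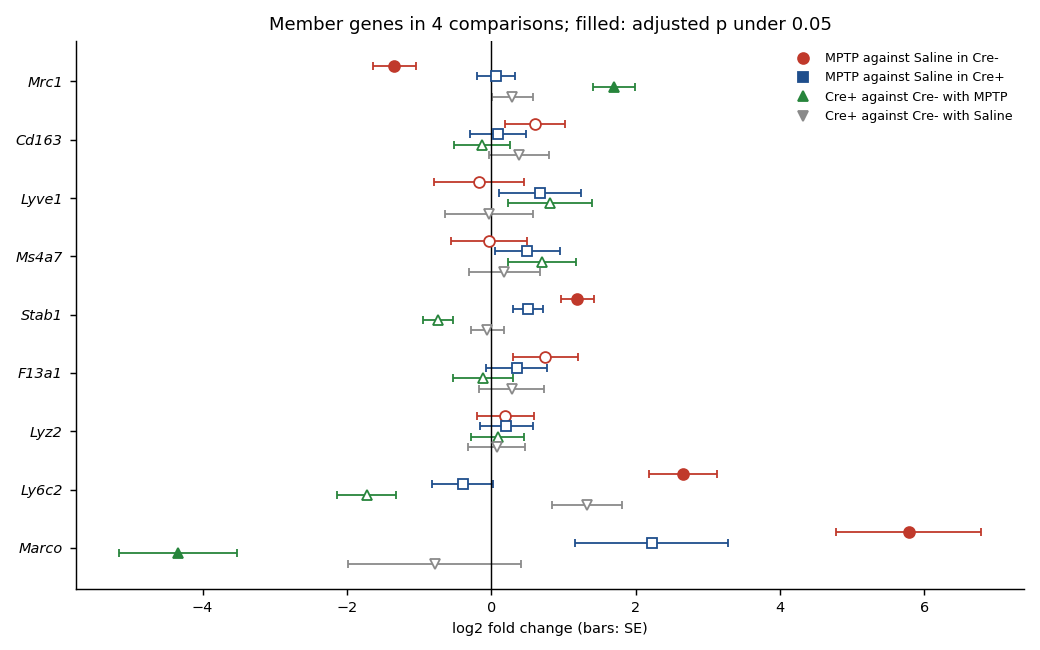
Log2 fold change with its SE (horizontal bars) for the 9 tested genes in 4 comparisons, with filled symbols where the edgeR adjusted p was under 0.05. Marco (5.79), Ly6c2 (2.66) and Stab1 (1.19) are filled above 0 and Mrc1 (-1.34) below 0 for MPTP in Cre- mice, and Mrc1 (1.70) and Marco (-4.35) are filled for genotype with MPTP.

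MPTP changed 4 of the 9 tested genes in Cre- mice, 3 higher (Marco, Ly6c2, Stab1) and 1 lower (Mrc1), where 3.18% of all 19360 tested genes were called, 2.23% higher and 0.956% lower. The 9 genes had a median log2 fold change of 0.61, against 0.03 over all tested genes. The CPM of the MPTP and saline groups did not overlap for these same 4 genes, as for 15.1% of all genes. DESeq2 called the same 4 and limma voom these and F13a1, where they called 5.87% and 13.6% of all genes. In Cre+ mice, 0 of the 9 passed the edgeR test, as did 0% of all genes, and DESeq2 and limma voom also called 0 of the 9, where they called 0.429% and 1.52% of all genes. At an unadjusted p under 0.05 there was 1, Stab1, against 3.47% of all genes, and Stab1 and Ms4a7 did not overlap between groups, against 9.66% of all genes. A call in Cre- mice and none in Cre+ mice does not by itself show a difference between genotypes.

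That difference is addressed by the comparison of Cre+ with Cre- mice given MPTP, which shares the Cre- MPTP libraries with the comparison above, and by the interaction. Between genotypes with MPTP, 2 of 9 were called, Mrc1 higher and Marco lower, where 1.54% of all genes were called, 0.517% higher and 1.03% lower. Groups did not overlap for 5 of the 9, with Mrc1 and Ms4a7 higher and Marco, Ly6c2 and Stab1 lower in Cre+ mice, against 11.3% of all genes. DESeq2 and limma voom each called 4, Mrc1, Marco, Ly6c2 and Stab1, where they called 4.31% and 6.32% of all genes. With saline, edgeR called 0 of the 9 and 0% of all genes, Ly6c2 had an unadjusted p under 0.05 (0.909% of all genes), and Ly6c2 and Marco did not overlap, against 11.6% of all genes. DESeq2 and limma voom called 0 of the 9 with saline as well, and 0.0103% and 0.0155% of all genes. For the interaction edgeR called 0 of the 9 and 0.0103% of all genes. At an unadjusted p under 0.05 there were 4, Ly6c2, Mrc1, Marco and Stab1, against 5.76% of all genes, while DESeq2 called 1 (Ly6c2) and 1.15% of all genes, and limma voom 3 (Ly6c2, Mrc1 and Marco) and 3.56% of all genes.

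Over all 19360 tested genes, edgeR called 2.23% higher and 0.956% lower with MPTP in Cre- mice. Between genotypes with MPTP it called 0.517% higher and 1.03% lower in Cre+ mice. The counts of the lists that follow stand beside these shares. Of 20 other genes of border macrophages, 16 were tested. MPTP raised 3 of these 16 in Cre- mice and lowered 2, and in Cre+ mice edgeR called 0, with 2 at an unadjusted p under 0.05, while DESeq2 and limma voom each called 2, Siglec1 and Ms4a6d, higher. Clec10a and Mgl2, which encode the CD301 lectins, fell with Mrc1 in Cre- mice, by 2.60 ± 0.43 and 2.78 ± 0.59 on the log2 scale (edgeR adjusted p = 0.00506 and 0.0221). Clec10a had 0.992, 0.820 and 1.39 CPM in Cre- Saline against 0.217, 0.119 and 0.198 CPM in Cre- MPTP mice, and 0.504 to 1.03 CPM in the 7 Cre+ mice. Those 2 genes and Folr2, the folate receptor beta gene of resident macrophages, were higher in Cre+ than in Cre- MPTP mice, with log2 differences of 2.06 ± 0.42, 2.58 ± 0.58 and 2.05 ± 0.44 (edgeR adjusted p = 0.0345, 0.0471 and 0.0396). Cre- MPTP libraries held only 2, 3 and 6 counts of Clec10a, 0, 6 and 4 of Mgl2 and 1, 4 and 5 of Folr2. Precision was thus limited by counting. All 3 of these genotype calls ended without the 2 libraries that stood apart, at 1.93, 2.03 and 1.69 (edgeR adjusted p = 0.0589, 0.0697 and 0.122). The genes that rose in Cre- mice were Siglec1, the sialic acid receptor CD169 (2.66 ± 0.59), Ms4a4a (3.17 ± 0.76) and Ms4a6d (4.48 ± 0.53, edgeR adjusted p = 0.0273, 0.0421 and 0.000979), and Ms4a6d was lower in Cre+ than Cre- MPTP mice (-2.09 ± 0.42, edgeR adjusted p = 0.0318). Pf4, Cbr2 and Cd209f were tested and not called by edgeR, DESeq2 or limma voom in any comparison, and Dab2 was called only by limma voom. The list had a median log2 fold change of -0.11 in Cre- mice against 0.03 over all genes. Its 2 most abundant genes per kilobase, Maf and Cd38, were not called by edgeR, although Maf stood at 139 CPM in Cre- MPTP replicate 1 against 25.9 to 37.8 CPM in the other 12 libraries.

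Of 19 other monocyte genes, 13 were tested, 3 rose in Cre- mice and 0 fell, and the same 3 were lower in Cre+ than in Cre- MPTP mice. These were Chil3, which encodes the chitinase-like protein Ym1, Ms4a6c and Hp, which encodes haptoglobin. Chil3 had 0.0397, 0.117 and 0 CPM in Cre- Saline, 3.47, 1.58 and 9.87 CPM in Cre- MPTP, and 0.0739 to 0.895 CPM in Cre+ mice. The log2 fold changes with MPTP in Cre- mice were 6.47 ± 1.02 for Chil3, 4.24 ± 0.50 for Ms4a6c and 4.40 ± 0.78 for Hp (edgeR adjusted p = 0.00374, 0.000966 and 0.00702), and between genotypes they were -3.57 ± 0.72, -2.52 ± 0.41 and -4.13 ± 0.69 (edgeR adjusted p = 0.0325, 0.0128 and 0.0142). The monocyte markers Treml4, Ear2, S100a4, Ms4a4c and Clec4e were among those below the filter. Ccr2, the chemokine receptor gene of inflammatory monocytes, had 0 to 25 counts in a library. It was tested, as were Fn1, Vcan, Spn and Itga4, and edgeR, DESeq2 and limma voom called none of these in any comparison. The 2 most abundant genes of the list, Nr4a1 and Ace, were not called by edgeR in any comparison. DESeq2 and limma voom called Ace higher with MPTP in Cre- mice, at 49.0 to 66.5 CPM against 33.1 to 41.9 CPM with saline. In Cre+ mice edgeR called 0 of the 13, with 2 at an unadjusted p under 0.05, and DESeq2 and limma voom each called 1, Nr4a1, lower.

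Of 12 other scavenger receptor genes, 11 were tested. Msr1, the class A receptor SR-A, rose with Marco in Cre- mice, as did Scara5, a ferritin receptor, and Cxcl16, a membrane-bound chemokine that takes up oxidized lipoprotein. Msr1 had 0.437, 0.234 and 0.365 CPM in Cre- Saline, 12.1, 17.9 and 20.96 CPM in Cre- MPTP, 0.749, 0.529 and 0.457 CPM in Cre+ Saline, and 1.18, 6.88, 1.20 and 2.02 CPM in Cre+ MPTP mice. Every Cre- MPTP value of Msr1 lay above every Cre+ MPTP value, and every MPTP value above the saline values of the same genotype. The log2 fold changes in Cre- mice were 5.61 ± 0.70 for Msr1, 1.85 ± 0.38 for Scara5 and 2.02 ± 0.27 for Cxcl16 (edgeR adjusted p = 0.00130, 0.0168 and 0.00184). Msr1 and Cxcl16 were lower in Cre+ than in Cre- MPTP mice, with log2 differences of -2.62 ± 0.53 and -1.77 ± 0.24 (edgeR adjusted p = 0.0314 and 0.00720). In Cre+ mice edgeR called 0 of the 11, with 3 at an unadjusted p under 0.05, while DESeq2 called Msr1 higher and limma voom Colec12 lower. The abundant Megf10 and Scara3 were not called by edgeR in any comparison.

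Of 16 genes that recruit, feed or specify macrophages, 14 were tested, and 5 rose with MPTP in Cre- mice. These were the growth factor gene Csf1 (1.23 ± 0.18), the receptor subunit gene Csf2rb (2.52 ± 0.40), the monocyte chemokine genes Ccl2 (5.63 ± 0.99) and Ccl7 (4.28 ± 0.87), and Spi1, which encodes PU.1 (3.03 ± 0.74, edgeR adjusted p = 0.00267, 0.00366, 0.00689, 0.0171 and 0.0457). Ccl2 had 8.995, 9.66 and 8.88 CPM in Cre- MPTP and 0.148, 3.92, 0.444 and 1.11 CPM in Cre+ MPTP mice, against 0.0381 to 0.312 CPM in saline mice. Spi1 was decided largely by Cre- MPTP replicate 1, at 56.4 CPM against 4.71 and 8.12 CPM in its group, and its log2 fold change was 1.21 (edgeR adjusted p = 0.0320) without that library. Csf1 and Cebpa were lower in Cre+ than in Cre- MPTP mice, at -1.01 ± 0.17 and -2.80 ± 0.62 (edgeR adjusted p = 0.0133 and 0.0440), and Cebpa changed to -0.98 without Cre- MPTP replicate 1 (edgeR adjusted p = 0.0114). In Cre+ mice edgeR called 0 of the 14, with 6 at an unadjusted p under 0.05 and all 14 fold changes above 0, while DESeq2 called 2 higher (Ccl2 and Ccl12), as did limma voom (Csf1 and Ccl12). Cx3cl1 and Csf2ra, the most abundant genes of this list, were not called by edgeR, while limma voom called Csf2ra lower with MPTP in Cre- mice. Csf2ra had 206, 40.4 and 33.0 CPM in Cre- MPTP against 48.4 to 58.4 CPM in Cre- Saline mice.

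With saline, edgeR, DESeq2 and limma voom called 0 genes of these 4 lists between genotypes, and in edgeR 2 had an unadjusted p under 0.05. For the interaction edgeR also called 0, with 7 border macrophage, 5 monocyte, 3 scavenger receptor and 7 supply genes at an unadjusted p under 0.05. DESeq2 called 6 for the interaction, Mgl2 and Clec10a above 0 and Chil3, Ms4a6c, Msr1 and Cxcl16 below 0. limma voom called 10, among them the same genes except Chil3. For MPTP in Cre- mice both tools also called Tgfbi, Ifitm6, Ace, Colec12, Irf8 and Ccl12, which edgeR did not call. Between genotypes with MPTP both also called Ifitm6, Scara5, Ccl2, Ccl7 and Csf2rb lower in Cre+ mice. Colec12, Ccl12, Nr4a1, Tgfbi, Ifitm6 and Irf8 are named here because these tools called them.

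**Figure D3:**
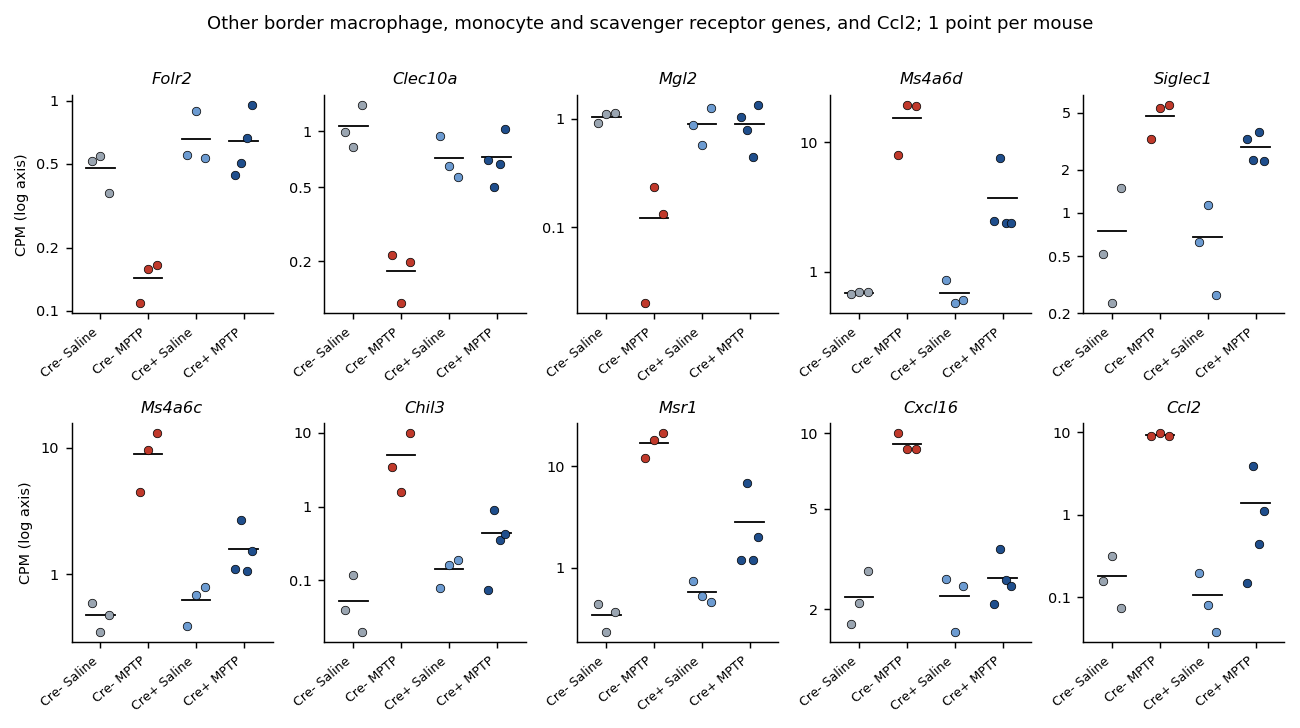
CPM on log axes for 10 named genes of the other lists, with 1 point per mouse and a line at each group's mean; values of 0 are drawn at 0.02 CPM. Clec10a, Mgl2 and Folr2 lie lowest in Cre- MPTP mice, while Msr1 (12.1 to 20.96) and Ccl2 (8.88 to 9.66) lie highest there.

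Leaving out 1 library at a time, the Cre- calls of Clec10a, Ms4a6d, Chil3, Ms4a6c, Msr1, Cxcl16, Csf1, Csf2rb and Ccl2 passed the edgeR test in 6 of 6 fits each. Of these, Chil3 and Ccl2 reached 10 counts only in MPTP libraries and passed the filter on low counts through them. Other Cre- calls ended in some of the 6 fits, with an adjusted p of up to 0.133 for Siglec1 (4 fits), 0.0776 for Mgl2 (4), 0.149 for Ms4a4a (5), 0.0519 for Hp (1, without Cre- Saline replicate 1), 0.0932 for Scara5 (3), 0.103 for Ccl7 (3) and 0.200 for Spi1 (3). Ccl7, Scara5 and Spi1 lost theirs without each Cre- Saline library, and Siglec1 without Cre- MPTP replicate 2 or 3 or Cre- Saline replicate 1 or 2. The call of Mgl2 ended without Cre- MPTP replicate 3 or any Cre- Saline library, and that of Ms4a4a without every library but Cre- MPTP replicate 1. Of the calls between genotypes with MPTP, Cxcl16 passed in 7 of 7 fits, and each of the other 10 ended without Cre+ MPTP replicate 1 and without replicate 3, with an adjusted p of up to 0.149. Folr2, Clec10a, Mgl2, Ms4a6d, Chil3, Msr1 and Cebpa lost theirs without Cre+ MPTP replicate 4 too, Folr2, Clec10a, Mgl2, Ms4a6d and Chil3 without Cre- MPTP replicate 3, Mgl2 and Cebpa without Cre+ MPTP replicate 2, and Folr2 without Cre- MPTP replicate 1.

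Markers of other cell types moved in the same comparisons, and their part in the results above was not tested. Of 9 microglia markers, 5 fell in Cre- mice (P2ry12, P2ry13, Siglech, Gpr34 and Fcrls), and these 5 and Olfml3 were higher in Cre+ than Cre- MPTP mice. Their summed level was 197 to 239 CPM in Cre- Saline, 108 to 147 CPM in Cre- MPTP, 187 to 212 CPM in Cre+ Saline and 183 to 248 CPM in Cre+ MPTP mice. P2ry12, the purinergic receptor of homeostatic microglia, was called for the interaction, at 2.26 (edgeR adjusted p = 0.0240). The 10 pan-myeloid genes summed to 187 to 442 CPM in Cre- MPTP and 171 to 312 CPM in Cre+ MPTP mice, against 166 to 209 CPM with saline, and Itgam and Fcer1g rose in Cre- mice.

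Of 12 neutrophil markers, 7 were tested and 5 rose in Cre- mice, S100a8, S100a9, Retnlg, Mmp8 and Mmp9. Their list summed to 19.6 to 85.6 CPM in Cre- MPTP, 9.39 to 13.5 CPM in Cre+ MPTP and 6.63 to 11.8 CPM in saline mice, while the defining Ly6g had at most 3 counts in a library. Of the lymphocyte markers 5 were tested, and edgeR called 0 in any comparison. With MPTP in Cre- mice, 2 T and NK cell markers and 1 B cell marker lay wholly below saline, against 15.1% of all genes without overlap. Ighm, the immunoglobulin M heavy chain gene, had 45 to 684 counts in a library, Trac 7 to 100, Cd79a 4 to 27, and Cd3e and Cd4 up to 22 each, while Cd3d, Cd3g, Cd8a, Nkg7, Gzma and Ms4a1 had at most 4. Among 8 endothelial markers, 2 lay wholly above and 3 wholly below saline with MPTP in Cre- mice, against 15.1% of all genes without overlap. Between genotypes with MPTP, 4 lay wholly higher and 0 wholly lower in Cre+ mice, against 11.3% of all genes. For these 8, edgeR called 1 in Cre- mice and 1 between genotypes with MPTP. This was Tek, which fell by 1.81 ± 0.29 on the log2 scale in Cre- mice and was higher by 1.88 ± 0.27 in Cre+ than Cre- MPTP mice (edgeR adjusted p = 0.00374 and 0.00907). Of 9 meningeal fibroblast markers, Slc47a1, Ogn and Igf2 fell and Dcn rose in Cre- mice, with sums of 184 to 236 CPM in Cre- MPTP, 230 to 285 CPM in Cre- Saline, 143 to 259 CPM in Cre+ MPTP and 205 to 322 CPM in Cre+ Saline mice.

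**Figure D4:**
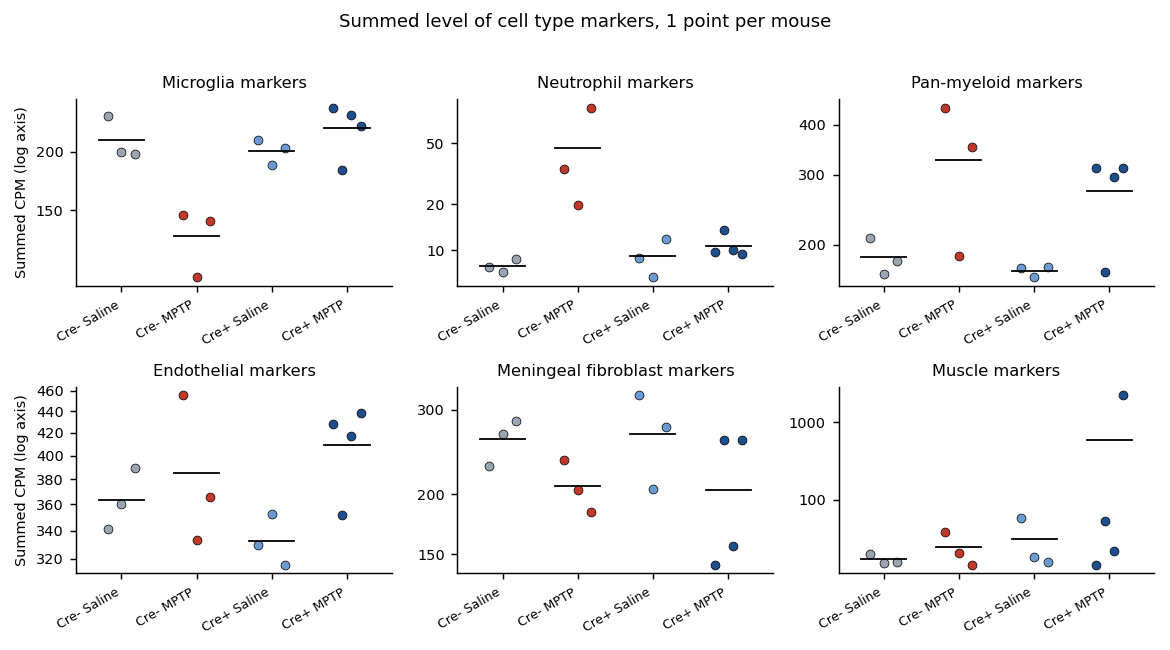
Summed CPM on log axes of 6 lists of cell type markers, with 1 point per mouse and a line at each group's mean. Microglia sums lie lowest (108 to 147) and neutrophil sums highest (19.6 to 85.6) in Cre- MPTP mice, and 1 Cre+ MPTP mouse holds 2245 CPM of muscle markers.

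For each member with a mean of at least 1 CPM, the genes whose log2 CPM followed it most closely over the 13 libraries were named as a description. Mrc1 was followed by Tek (r = 0.95), the angiopoietin receptor gene, then Pla2g16 and Srpk3 (0.94 each). Marco was followed by Serpina3m (0.99), Csf3 (0.98), which encodes the granulocyte growth factor G-CSF, and Fkbp5 (0.98), a glucocorticoid-responsive gene. Stab1 followed the myeloid kinase gene Lyn (0.96), Hcls1 (0.95) and Ogdhl (0.95). F13a1 was nearest to Csf3r (0.95), Aldh6a1 (0.91) and Retsat (0.90), Lyve1 to Fam198b (0.94), Pde7a (0.93) and Gm44240 (0.91), Cd163 to Ccdc51 (0.85), Rint1 (0.84) and Csf3r (0.82), and Lyz2 to Prelid2 (0.87), Ccdc51 (0.81) and Mir7688 (0.80).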

How the data were processed

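RNA-Seq had been performed on midbrain of 13 mice (TruSeq stranded total RNA, paired 150-base reads). The authors trimmed reads with Trimmomatic 0.36, aligned them to GRCm38 with STAR 2.5.2b and counted unique hits with featureCounts (Subread 1.5.2). The deposited values are raw counts for 49315 genes, of which 48970 were named from GENCODE M21. Here, edgeR 4.0.16 (R 4.3.3) was used with TMM scaling, 19360 genes that reached 10 counts in 3 or more libraries, 1 term per group over all libraries, the quasi-likelihood test and Benjamini-Hochberg adjustment in each of 5 contrasts, called at an adjusted p under 0.05. Totals of 11489150 to 29397278 counts limit genes with few reads. The SE is the log2 fold change divided by the root of F. The members and lists were chosen with earlier results of these data known. Named genes were all members, list genes called in at least 1 contrast (at most 6 per list) and the 2 of each list with the highest RPKM. Further list genes were named where DESeq2 or limma voom called them, or as markers that were not tested or not called. Alternatives were DESeq2 1.42.0, limma 3.58.1 voom, DESeq2 size factors, 2 other filters, fits of 2 groups, a replicate block, and libraries left out. The fitting functions were tested on simulated counts with known changes for MPTP in Cre- mice. There edgeR recovered 12 of 67 2-fold, 43 of 67 4-fold and 62 of 66 8-fold changes, with 5 false calls. A gene that was not called may therefore still have changed. The labels state no pairing of mice by number, so the main fit used no block.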

Additional observations from a re-analysis of the deposited data

Results flagged for a closer look

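Within the 4 Cre+ MPTP mice, Marco was 2.29 CPM in replicate 2 and at most 0.185 CPM in the other 3, a gap of 0.956 of the whole range of the group, which set this mouse apart from the rest. It rests on 41 counts in a library of 17713289. For normally distributed values, about 1 in 20 groups of this size is flagged by chance. All 10 genes were screened, so at least 1 flag by chance is likelier than that. The other 3 Marco values rested on 2 to 5 counts, for which this rate may not hold. The same library was also the highest of the 4 for Msr1 (6.88 CPM, against 1.18 to 2.02 CPM), Ms4a6d (7.50 CPM), Ms4a6c (2.69 CPM), Chil3 (0.895 CPM), Ccl2 (3.92 CPM) and Ccl7 (1.12 CPM), and the lowest for Mrc1 (4.64 CPM). These genes were picked after their values were seen.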

How the results depend on the processing

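All 4 Cre- calls and both genotype calls among the members kept their direction under each alternative that gave a value. Of 1047 values of 72 gene results, 852 kept their direction and their side of the threshold, 118 lost the call, 13 gained one and 64 changed sign, the last in 20 results of which 0 had been called. Of the members, 4 were called for MPTP in Cre- mice, but 2 with the filter raised to 10 counts in 7 or more libraries (7 members tested) and 1 in a fit of the 2 groups alone, and 2 to 4 with 1 library left out. Over all genes the stricter filter called 391 higher and 178 lower of 17980, and the fit of the 2 groups 105 higher and 5 lower of 18332. With 1 library left out, 213 to 992 genes were called higher and 98 to 820 lower, against 431 and 185 in the main fit. F13a1 was also called under limma voom and without the 2 libraries that stood apart, which gave 5 each. For Cre+ against Cre- with MPTP, where 2 were called, DESeq2 and limma voom called 4 each, the stricter filter 1, and the fit of the 2 groups 0, and 0 to 3 were called with 1 library left out. The fit of the 2 groups called 0 of all 18480 genes there, and the stricter filter 102 higher and 191 lower of 17980. With 1 library left out, 18 to 245 genes were called higher and 21 to 1581 lower, against 100 and 199 in the main fit. Without Cre+ MPTP replicate 1 or 3, where 0 members were called, these were 18 and 20 higher and 24 and 21 lower. For the interaction, with 0 called, DESeq2 called 1, limma voom 3, and 0 to 1 were called with 1 library left out. The 1 was Marco without Cre+ MPTP replicate 2, where 6 of all genes were called higher and 52 lower. The cause of these differences between settings was not tested, beyond the fewer genes or samples that the stricter filter and the smaller fits hold. The labels state no pairing of mice by number. Same-numbered mice of different groups correlated between -0.180 and 0.184 over 18 pairs, 3 of them over 0.1, and differently numbered mice between -0.182 and 0.239. These are deviations from means of small groups, so they cannot exclude a shared litter or batch. With the replicate block 3 members were called for MPTP in Cre- mice and 0 between genotypes with MPTP, and 0 in the other comparisons. Over all genes the block called 297 higher and 131 lower for MPTP in Cre- mice, and 0 of 19360 in every other comparison.

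The changes of sign concerned results that were not called, whose log2 fold changes were between -0.52 and 0.84. For MPTP in Cre- mice, the values with 1 library left out ranged from -0.63 to 0.21 for Lyve1, -0.32 to 0.65 for Ms4a7, -0.45 to 0.44 for Lyz2 and -0.062 to 1.11 for F13a1. For MPTP in Cre+ mice they ranged from -0.069 to 0.24 for Mrc1, -0.22 to 0.40 for Cd163 and -0.075 to 0.35 for Lyz2. Between genotypes with MPTP they ranged from -0.45 to 0.48 for Cd163, -0.19 to 0.75 for Lyz2 and -0.48 to 0.70 for F13a1. With saline they ranged from -0.49 to 0.26 for Lyve1, -0.12 to 0.86 for Ms4a7, -0.069 to 0.27 for Lyz2 and -0.19 to 0.14 for Stab1. For the interaction they ranged from -0.84 to 0.088 for Cd163, -0.15 to 0.82 for Ms4a7, -0.27 to 0.66 for Lyz2 and -0.76 to 0.42 for F13a1. Under limma voom the sign turned for MPTP in Cre- mice for Lyve1 (0.78) and Ms4a7 (0.67), in Cre+ mice for Cd163 (-0.069), between genotypes with MPTP for Lyz2 (-0.29), with saline for Lyve1 (0.41) and Lyz2 (-0.039), and for the interaction for Lyve1 (-0.34), Ms4a7 (-0.23) and Lyz2 (-0.25). DESeq2 gave 0.021 for Ms4a7 with MPTP in Cre- mice and -0.0046 for the interaction of Lyz2, which DESeq2 size factors put at -0.0070, and the stricter filter gave 0.0014 for Ms4a7 in Cre- mice. The replicate block gave 0.037 for Ms4a7 in Cre- mice, -0.085, -0.22 and -0.087 for Mrc1, Cd163 and Lyz2 in Cre+ mice, -0.12 for Lyz2 between genotypes with MPTP and -0.15 for its interaction. Without Cre- MPTP replicate 1 and Cre+ MPTP replicate 4 the values were 0.22 for Lyve1 and 0.25 for Ms4a7 in Cre- mice, -0.057, -0.22 and -0.067 for Mrc1, Cd163 and Lyz2 in Cre+ mice, -0.049 for Lyve1 and -0.43 for Lyz2 between genotypes with MPTP, and -0.023 and -0.51 for their interactions.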
